A study of Rattus norvegicus with 21 samples.

Results

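The results concern rat spinal cord cultures exposed to indomethacin for 4 hr, hybridised against a pool of ethanol-treated cultures. They are the 3 arrays titled as indomethacin replicates against ETOH, of 21 two-colour arrays in the series, and they were chosen by title alone. The study set cultured cord pieces treated with anti-inflammatory compounds against vehicle-treated cultures, with 3 arrays in each of 7 groups. The Indo group held total RNA of indomethacin-treated 4 hr cultures in one channel and of pooled ETOH-treated 4 hr cultures in the other. The NS398 group was set against a pool of DMSO-treated cultures. The CKIN, MP and Acet (acetaminophen) groups were set against a pool of cultures given PBS. The Injured 4 hr group of unpooled PBS-treated cultures and the Uninjured group of freshly dissected cord were also set against a PBS pool. The titles do not say whether it was the same pool. All cultures were sampled at 4 hr. The labels give no dose, strain, sex, age or dye, and nothing in them says whether replicates came from separate animals, so p-values measure the spread between arrays, which may be technical.

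Indomethacin blocks both cyclooxygenases, PTGS1 and PTGS2, which turn arachidonic acid released by phospholipases A2 into the precursor of the prostaglandins, prostacyclin and thromboxane. In injured nervous tissue PTGS2 and the inducible prostaglandin E synthase PTGES are known as the source of prostaglandin E2, whose receptors act largely through cAMP. At higher exposure indomethacin is also known to bind PPAR-gamma, a nuclear receptor for fatty acids.

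Every value below is a log2 ratio of the culture to its vehicle pool after each array was centred on its median probe, unless another quantity is named. A ratio of 1 stands for a doubling. The direction, culture over pool, is likely from the order of the titles, and no label states it. The lowest correlation between any 2 of the 21 arrays was 0.066, so no 2 arrays were negatively correlated. Indo arrays also correlated, at 0.27 to 0.43, with Injured 4 hr arrays, which held PBS culture RNA in both channels. A positive correlation therefore does not settle the direction. The ETOH pool is a single control sample and no unpooled ETOH culture was hybridised, so the spread of the control cultures is outside the test. A ratio says nothing of how strongly a gene was expressed.

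The 3 Indo arrays measured 3667, 3949 and 3745 of 5376 probes, against 4882 to 4915 on the Injured 4 hr arrays, which carried PBS culture RNA in both channels. On the Indo arrays 10.1% to 11.4% of values were exact ratios of whole numbers up to 20, as dim spots give, against 0.977% to 1.21% on the Injured 4 hr arrays. Deposited medians were 0.24, -0.17 and -0.20 on the Indo arrays. The mean of 51 Gapdh spots lay above the array median by 0.93, 0.88 and 0.26 on the Indo arrays and by 2.15 to 2.17 on the Injured 4 hr arrays. Over 2920 probes with 3 values, the median SD of Indo was 0.37. Over the probes with 3 values in each group, it was 0.235 in Injured 4 hr and 0.511 in NS398. The SEs and p-values below use a spread per probe that is shared by all groups, not that of the Indo arrays alone.

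Indomethacin cultures differed from the ETOH pool at 507 of 3804 probes tested, 13.3% (limma, Benjamini-Hochberg adjusted p under 0.05). Of these, 99 probes (2.6%) were higher and 408 (10.7%) were lower. The higher set was led by Barhl1, Slc38a1, Kif1b, Rarb and microtubule genes, and the lower set by Chrm5, Ptpru, Chn1, Nos1ap and Arhgap17. The sign was the same on every measured Indo array for 97 of the 99 and for 403 of the 408. The calls rest on these same arrays, so a shared sign was favoured by the selection. Without Indo array 1 the count was 298, and without Indo array 3 it was 329. The same test on the Injured 4 hr arrays, with like RNA in both channels, called 1074 of 4866 probes (22.1%), of which 1021 were higher (21%) and 53 lower (1.09%). Because those ratios followed a smooth trend and the source plate of a probe, each array was also corrected by its curve on the Injured 4 hr mean and by plate. The corrected ratios gave 368 of 3783 calls (9.73%), with 128 higher (3.38%) and 240 lower (6.34%).

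The calls were largely shared in sign with the other groups, which were set against other pools, Injured 4 hr included. Of the 408 lower probes, 398 had a negative mean in MP, 393 in Acet, 384 of 404 in CKIN and 386 of 407 in NS398. Of the 99 higher probes, 88 had a positive mean in Acet, 86 in MP, 77 in NS398 and 76 of 96 in CKIN. In Injured 4 hr, with no drug, 84 of the 99 had a positive mean and 318 of the 408 a negative one. The share of each sign over all probes tested was not counted, so the excess over it is not known. Over all probes, Pearson's r between Indo arrays was 0.48 to 0.58, and between Indo and MP arrays it was 0.40 to 0.64. With Acet it was 0.41 to 0.61, and with the Injured 4 hr arrays 0.27 to 0.43. The range within Indo lay inside the range between Indo and MP arrays. The Indo mean and the mean of the other 4 treatments correlated at 0.77 over 3717 probes, and at 0.65 in corrected ratios. The Indo and Injured 4 hr means correlated at 0.46, and at 0.003 in corrected ratios, which remove that trend by construction. Of the 99 higher probes 51 were also called higher in Injured 4 hr against its own pool, and of the 408 lower probes 15 were also called lower there.

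**Figure D1:**
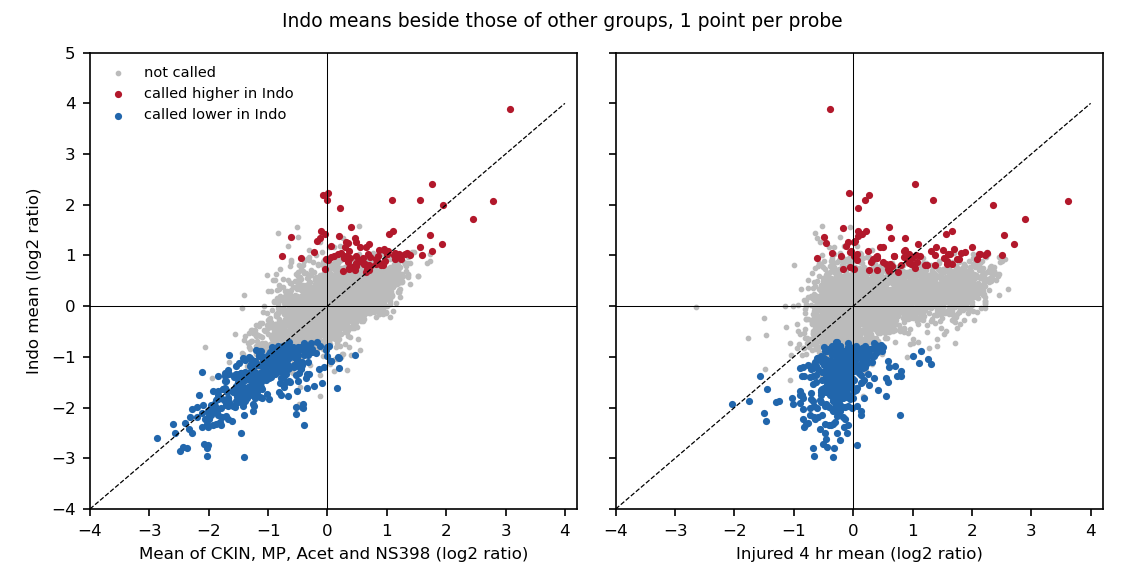
Each point is a probe, with the Indo mean log2 ratio to the ETOH pool on the vertical axes, the mean of CKIN, MP, Acet and NS398 on the left horizontal axis and the Injured 4 hr mean on the right one. Red points were called higher and blue points lower in Indo, and the dashed line marks equal values: the blue points lie along it on the left (r = 0.77 over all probes) and off it on the right (r = 0.46).

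Promoters are shown for 3 genes picked from the results. They are Rarb, a retinoic acid receptor that is itself a retinoid target, Ptgs2, the inducible drug target, which was not called, and Cxcl2, the chemokine that was called. They run from 250 bases before to 50 after the gene start in RefSeq's annotation of GRCr8, at chr15:11336142-11336441 (plus strand) for Rarb, chr13:64713813-64714112 (plus) for Ptgs2 and chr14:17467206-17467505 (minus) for Cxcl2. Capitals mark the motifs searched on both strands: GGTTCA and AGTTCA, letters of retinoid receptor sites, in Rarb, CACGTG, an E-box, in Ptgs2, and the kappaB consensus in Cxcl2.
Rarb: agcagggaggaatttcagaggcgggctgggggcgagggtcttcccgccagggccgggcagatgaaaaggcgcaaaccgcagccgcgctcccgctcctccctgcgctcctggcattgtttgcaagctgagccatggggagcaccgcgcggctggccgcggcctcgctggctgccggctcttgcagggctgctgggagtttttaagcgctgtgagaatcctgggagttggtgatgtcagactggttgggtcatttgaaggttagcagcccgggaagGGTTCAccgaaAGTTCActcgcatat
Ptgs2: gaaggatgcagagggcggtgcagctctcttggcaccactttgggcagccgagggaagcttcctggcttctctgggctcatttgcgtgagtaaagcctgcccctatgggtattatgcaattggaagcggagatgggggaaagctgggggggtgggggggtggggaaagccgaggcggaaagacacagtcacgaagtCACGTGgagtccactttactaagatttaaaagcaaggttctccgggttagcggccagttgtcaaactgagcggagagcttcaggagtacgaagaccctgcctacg
Cxcl2: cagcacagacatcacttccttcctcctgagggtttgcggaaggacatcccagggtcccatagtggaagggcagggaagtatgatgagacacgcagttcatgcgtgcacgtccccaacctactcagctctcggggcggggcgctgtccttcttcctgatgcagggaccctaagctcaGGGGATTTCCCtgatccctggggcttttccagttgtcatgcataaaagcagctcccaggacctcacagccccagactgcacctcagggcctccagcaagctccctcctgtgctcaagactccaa
In Rarb these sites begin 25 and 36 bases after the start, 5 bases apart and in the same direction, and 11.7% and 14.5% of 33469 rat promoters hold those letters. The Ptgs2 match begins at -55, and 6.42% of promoters hold an E-box. Cxcl2 has 2 overlapping kappaB matches, beginning at -74 and -73, and 7.51% of promoters hold one. Each motif was marked only in the gene it is named with, so unmarked bases may hold the others. A match is a description of the sequence only.

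The 10 largest rises were, in order, Barhl1, Slc38a1, Pcdha10, Kif1b, Rarb, Map1b, Map1a, Scarb2, Nefl and Shank3. The largest was Barhl1, a homeobox transcription factor of dorsal spinal cord neurons, with 4.33, 2.72 and 4.6 on the 3 Indo arrays, a mean of 3.88 ± 0.46 (SE, n = 3; limma adjusted p = 1.1e-05). All 3 arrays were far above 0. Barhl1 was also high in every other treatment, at 3.04 in CKIN, 3.84 in MP, 2.80 in Acet and 2.59 in NS398, but at -0.39 in Injured 4 hr. Rarb read 1.68, 1.77 and 2.82, a mean of 2.09 ± 0.36 (adjusted p = 0.00026). Its means elsewhere fell into a high and a low group, 2.07 in Acet and 1.64 in MP, 0.46 in NS398 and 0.20 in CKIN, with 0.21 in Injured 4 hr.

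Kif1b, a kinesin that carries mitochondria and synaptic vesicle precursors, was the most even of them, at 2.10, 2.05 and 2.14 (mean 2.10 ± 0.24, limma adjusted p = 1.0e-05). Slc38a1, a glutamine transporter, read 3.03, 1.74 and 2.44, a mean of 2.40 ± 0.33 (adjusted p = 3.9e-05). The microtubule-associated proteins Map1b (1.97, 2.35 and 1.91) and Map1a (2.40, 2.39 and 1.18) and the light neurofilament Nefl (1.37, 2.06 and 1.70) all passed the test, while the other Nefl probe had a mean of -0.02 and was not called. Those 3 were at least as high in the Injured 4 hr arrays, at 3.62 for Map1b, 2.36 for Map1a and 2.90 for Nefl. In corrected ratios Map1b was 1.19 and Nefl 0.99, still past the test. Pcdha10, a protocadherin whose alpha cluster shares its last exons, had only 2 values, 3.30 and 1.18. Scarb2, a lysosomal membrane protein, had 0.88 and 2.98, and the postsynaptic scaffold Shank3 had 1.78 and 1.33. Pcdha10 and Scarb2 were not called when the fit held only the Indo arrays. A gene with 2 values could not be tested with an array left out, here and below.

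**Figure D2:**
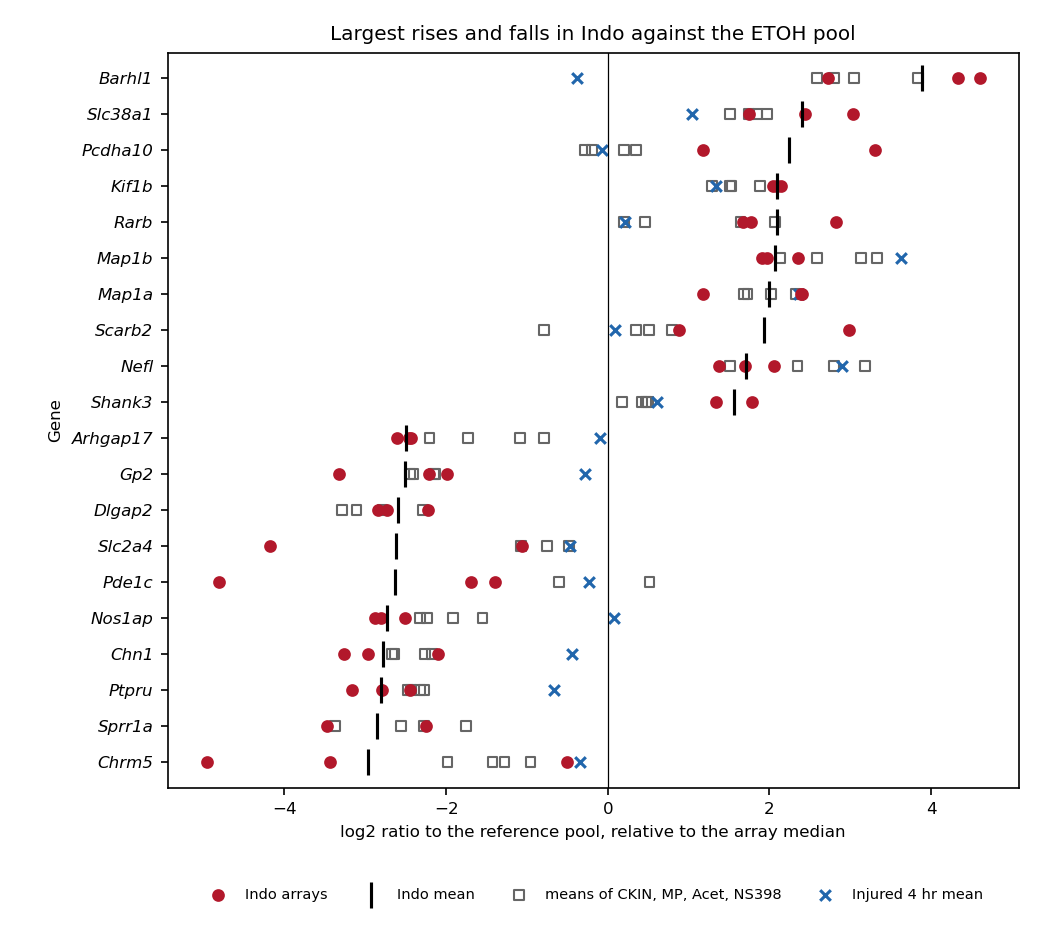
Genes with the 10 largest rises and 10 largest falls run down the page, with the log2 ratio to the vehicle pool on the horizontal axis. Red points are Indo arrays, black bars their mean, open squares the means of the 4 other treatments and blue crosses the Injured 4 hr mean: Barhl1 squares lie at 2.59 to 3.84 with the cross at -0.39, and Nos1ap squares at -2.32 to -1.55 with the cross at 0.07.

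The 10 largest falls were, in order, Chrm5, Sprr1a, Ptpru, Chn1, Nos1ap, Pde1c, Slc2a4, Dlgap2, Gp2 and Arhgap17. Arhgap17, a GTPase-activating protein, was the most even, at -2.44, -2.46 and -2.60 (mean -2.50 ± 0.26, SE, n = 3; limma adjusted p = 4.3e-06). Nos1ap, which binds the neuronal nitric oxide synthase, read -2.81, -2.50 and -2.88, a mean of -2.73 ± 0.30 (adjusted p = 1.0e-05). Its mean in Injured 4 hr was 0.07. Chn1, a Rac-inactivating protein of axon guidance, read -3.26, -2.97 and -2.10. The receptor phosphatase Ptpru read -3.16, -2.45 and -2.79, and the postsynaptic scaffold Dlgap2 read -2.84, -2.74 and -2.22. All 3 arrays were low in each of these 5 genes. Gp2, a glycoprotein known from the pancreas, read -3.32, -2.21 and -1.99.

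The other falls varied more. Chrm5, a muscarinic acetylcholine receptor, read -4.96, -0.50 and -3.44, a mean of -2.97 ± 0.55 (limma adjusted p = 0.00057), and -1.97 without Indo array 1. Pde1c, a calmodulin-dependent phosphodiesterase, read -1.69, -1.39 and -4.81, a mean of -2.63 that was -1.54 without Indo array 3. Slc2a4, the insulin-responsive glucose transporter, had values of -4.17 and -1.06, and Sprr1a, a small proline-rich protein induced in injured neurons, had -3.47 and -2.25. With only the Indo arrays in the fit, Chrm5, Pde1c and Slc2a4 were not called. By the number at the head of each probe's ID, taken here as its source plate, 6 of the 10 falls came from plates 36, 41 and 43. Lower calls made up 36.8%, 36.2% and 38.6% of the probes tested on those plates, against 10.7% over all. The part of the plate in these falls was not tested. In corrected ratios, which are centred on each plate, 8 of the 10 had a value, with Nos1ap at -2.18, Ptpru at -2.14 and Arhgap17 at -1.83.

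Of the prostanoid synthesis genes, the pathway that indomethacin blocks, 11 probes could be tested and 2 fell, Ptges and Pla2g5, while none rose. Lower calls made up 18.2% of this short list, against 10.7% over all probes. The list median was -0.11, against 0.02 over all probes. Ptges, the inducible synthase that makes prostaglandin E2, read -2.20, -1.39 and -2.37, a mean of -1.99 ± 0.34 (SE, n = 3; limma adjusted p = 0.00023; 95% interval -2.68 to -1.30). All 3 arrays were low, and the Injured 4 hr mean was -0.14. Ptges was low in every other treatment as well, at -2.16 in CKIN, -2.42 in MP, -2.75 in Acet and -1.45 in NS398. Pla2g5, a secreted phospholipase A2, had 2 values, -1.49 and -2.51 (mean -2.0 ± 0.47, adjusted p = 0.0054). Its means in the other groups ran apart, at -1.61 in MP, -0.48 in Acet, 0.20 in CKIN and 0.25 in NS398.

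The cyclooxygenase transcripts themselves did not pass the test. The Ptgs2 probe with 3 values read 0.84, 0.98 and 0.28, a mean of 0.70 ± 0.27 (limma adjusted p = 0.099; 95% interval 0.13 to 1.27), and was called under quantile (1.13) and scale (0.81) normalization. All 3 values were above 0, as in Injured 4 hr, where the mean was 1.09. In corrected ratios it was 0.14. The other Ptgs2 probe had a single Indo value, -0.40. The constitutive Ptgs1 had 0.94, -0.70 and -0.56 at one probe and -0.65, 0.24 and -1.03 at the other, so both probes scattered around 0.

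The remaining synthesis genes were not called. Ptgds, the prostaglandin D synthase of glia and meninges, had a mean of 0.43, and Slco2a1, a prostaglandin transporter, had 0.29. The thromboxane synthase Tbxas1 had -0.22, the prostacyclin synthase Ptgis -0.03, and the phospholipases Pla2g2a and Pla2g1b -0.43 and -0.00. Pla2g4a, the cytosolic phospholipase A2, and Pla2g6 were each measured on 1 Indo array, at 0.61 and -0.04. Hpgd and Ptgr1, which inactivate prostaglandins, Hpgds and Pla2g10 had no Indo value.

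Of 9 prostanoid receptor probes, 4 were tested and none was called. The means were -0.29 for the prostaglandin E2 receptor Ptger2, -0.39 for the prostaglandin D2 receptor Ptgdr, 0.24 for the prostaglandin F receptor Ptgfr and 0.20 for the prostacyclin receptor Ptgir. Ptger1 (0.68), Ptger3 (1.55), Ptger4 (-1.19) and Ptgfrn (0.74) had 1 Indo value each, and the thromboxane receptor Tbxa2r had none. Of the leukotriene and lipoxygenase pathway, which uses the same arachidonic acid, 7 probes were tested and none was called. Alox5, the enzyme that opens leukotriene synthesis, had a mean of 0.23 ± 0.23, and of 0.75 in corrected ratios, where it passed (limma adjusted p = 0.018). Alox15 read -2.19 and 0.56, the epoxide hydrolases Ephx2 and Ephx1 had means of -0.96 and 0.69, and Cyp2j3, Ggt1 and Dpep1 had -0.41, -0.25 and -0.10. Under quantile normalization Ephx1 was called (1.07). Alox5ap had a single value of 0.47.

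**Figure D3:**
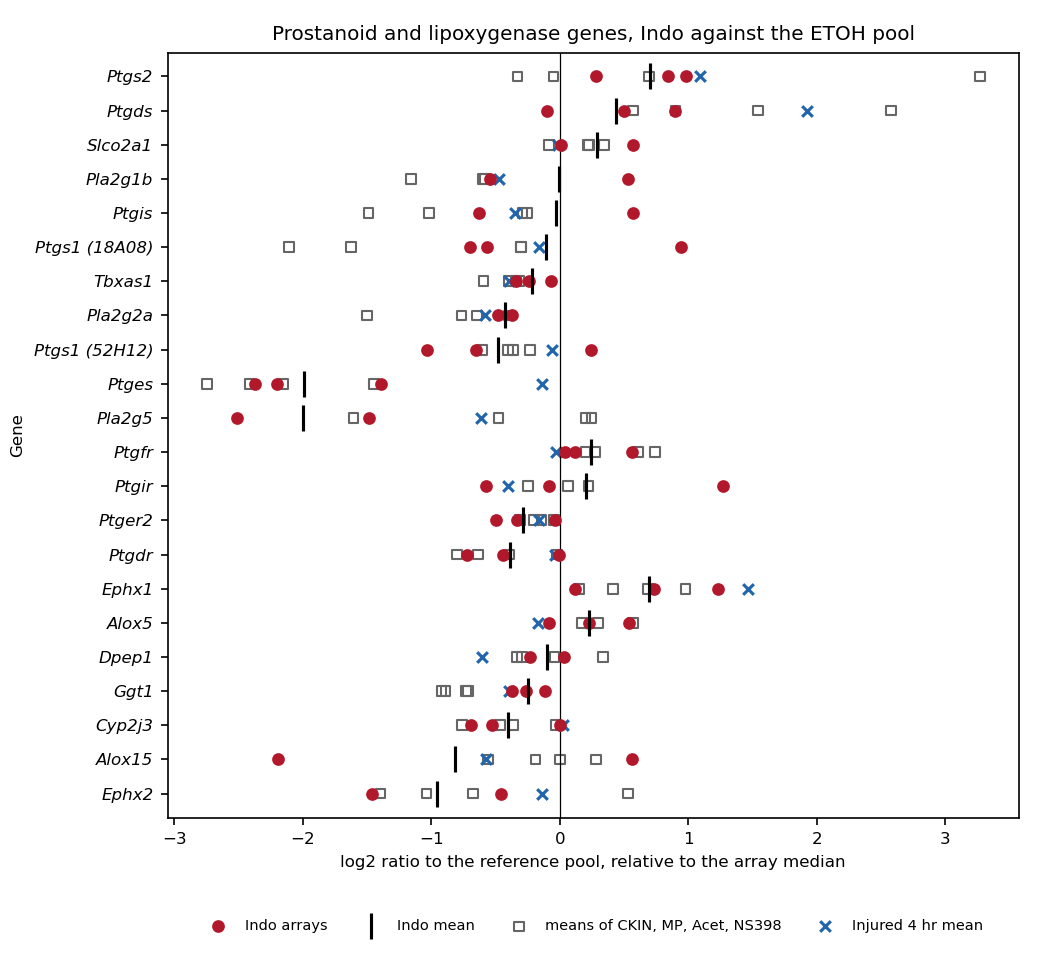
Prostanoid synthesis genes, then receptors, then leukotriene and lipoxygenase genes run down the page, with the log2 ratio to the vehicle pool on the horizontal axis. Symbols are as in the plot of the largest changes: the Indo arrays of Ptges lie between -2.37 and -1.39, while those of Ptgs2 lie between 0.28 and 0.98 and its NS398 mean at 3.27.

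Of 23 PPAR system probes 2 rose and 2 fell, with a median of 0.27, and of 18 cAMP responsive probes none rose and 2 fell, with a median of -0.09. Lower calls made up 8.7% and 11.1% of the lists, near the 10.7% over all probes. Higher calls made up 8.7% of the PPAR list, against 2.6% over all probes. In corrected ratios 3 of 23 PPAR probes were higher and 1 lower, where 3.38% of all probes were higher and 6.34% lower. The mitochondrial uncoupling protein Ucp3 (1.09) and the fatty acid transporter Cd36 (0.73) rose. Lipoprotein lipase Lpl (-1.22) and the coactivator Ppargc1a (-1.72) fell, and Ppargc1a was not called in corrected ratios (-0.81). The Cd36 call was lost without Indo array 1 (0.81) or 3 (0.41), and the Lpl call without Indo array 3 (-0.96). The 2 cAMP responsive genes that fell were Tac1 (-1.18), which encodes substance P, and Creb1 (-0.90), a transcription factor that cAMP signalling activates. The corrected value of Creb1 was -0.27 and not called. The Tac1 call was lost without Indo array 1 (-0.90), and that of Creb1 without any 1 of the 3, with values from -1.06 to -0.63.

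Of 32 cytokine and chemokine probes 1 rose (3.12%, against 2.6% over all probes) and 2 fell (6.25%, against 10.7%), with a median of 0.28. Cxcl2, a neutrophil-attracting chemokine, read 1.23, 1.43 and 1.60, a mean of 1.42 ± 0.39 (limma adjusted p = 0.016). The 3 arrays were close together, and the Injured 4 hr mean was 1.57. Its call was lost without any 1 of the 3 arrays, although the value stayed between 1.33 and 1.51, and its corrected value was 0.82. Lif and Il12a fell, at -1.19 and -0.92. The other Lif probe read -0.60 and 0.32 and was not called. Neither was called in corrected ratios, where they were -0.55 and -0.58, nor without Indo array 1 (-1.04 for both). Without Indo array 2 Lif was -1.21 and not called, and without Indo array 3 Il12a was -0.54.

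The main injury cytokines did not pass in the main fit. Il1a read 0.92, 0.84 and 0.36 (mean 0.70, limma adjusted p = 0.054), Il6 0.28, 1.22 and 1.01, and Tnf -1.28 and -0.10. The monocyte chemokine Ccl2 had means of 0.60 and 0.14 at its 2 probes, Cxcl1 had 0.71, and Il1b 0.27 at the probe with 3 values. Under quantile normalization Il1a (1.15), Il6 (1.28) and Cxcl1 (1.10) were called higher, and under scale normalization Il1a (0.81) and Il6 (0.98). Il1a was also called among probes with 3 values (0.70) and without small whole-number ratios (0.70). In corrected ratios Il6 was 0.55 and Cxcl1 0.16, not called. None of the 15 NF-kB component and target probes was called, with a median of -0.00. Nfkbia, the inhibitor that NF-kB induces, had a mean of -0.09, and the cytokine signalling inhibitor Socs3 had 0.55. Socs3 was called under quantile normalization (0.89) and without Indo array 3 (0.90).

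Of 29 early response probes 2 rose (6.9%, against 2.6% over all probes) and 4 fell (13.8%, against 10.7%), with a median of 0.01. The stress transcription factor Atf3 (0.97) and the phosphatase Dusp1 (1.01) rose. The growth regulator Myc (-1.68), the repressor Nfil3 (-1.29), the urokinase receptor Plaur (-1.04) and the matrix protein Ccn1 (-1.02) fell. The Atf3 call was lost without Indo array 1 (0.80) or 2 (0.91) and in corrected ratios (0.60), the Ccn1 call without Indo array 2 (-0.82), and the Nfil3 call in corrected ratios (-0.59). The corrected value of Myc was -1.02. Of 27 heat shock and chaperone probes none was called, with a median of 0.43, and the inducible Hspa1a had means of 0.23 and -0.22 at its 2 probes. The stress-induced heme oxygenase Hmox1 had a mean of 0.90 (limma adjusted p = 0.16) and was called under quantile normalization (1.38).

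Markers of the cells of spinal cord are read here against the 2.6% of all probes that were higher and the 10.7% that were lower. In bulk tissue, fewer cells of a type and less RNA per cell cannot be told apart. None was called among 23 astrocyte probes (median 0.14), 16 oligodendrocyte and myelin probes (0.24) or 11 microglia and macrophage probes (0.21). Of 36 neuronal probes 1 rose, Nefl, and 1 fell, the synaptic vesicle gene Syt5 (-1.51, and -0.80 in corrected ratios, not called), with a median of 0.21. Of 17 endothelial and vessel probes none rose and 3 fell, with a median of -0.28: the vessel growth factor Angpt1 (-1.70), the endothelial nitric oxide synthase Nos3 (-1.55, corrected -0.93) and the VEGF receptor Kdr (-1.19). The other Nos3 probes tested had means of -0.15 and -0.42 and were not called. Kdr was not called in corrected ratios (-0.61). There 2 of the 17 endothelial and vessel probes were lower, and the list median was 0.09, of the opposite sign. Of 15 meningeal and fibroblast probes the collagen cross-linking enzyme Lox rose (0.78) and Igf2 fell (-1.24, corrected -0.40 and not called). The other Igf2 probe read -1.09 and 0.41 and was not called. The Lox call was lost without Indo array 2 (0.47) or 3 (0.76). Of 8 blood and granulocyte probes, Lcn2, an iron-binding protein of granulocytes and reactive glia (1.39), and the hemoglobin gene Hba-a1 (1.22) rose, and the T cell gene Cd3g fell (-1.12). Hba-a1 was not called in corrected ratios (0.34) or without any 1 array (1.10 to 1.42), and Cd3g not in corrected ratios (-0.36).

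Housekeeping systems held few calls. None of 69 cytosolic ribosomal protein probes (median 0.27) or of 39 proteasome and ubiquitin probes (median 0.17) was called. Of 34 respiratory chain and citrate cycle probes 3 rose, 8.82% against 2.6% over all probes: Atp5me (1.02), Atp5mc1 (0.90) and Ndufs6-ps1 (0.84). None of these was called in corrected ratios, where they were 0.37, 0.32 and 0.52. In those ratios no probe of this list was higher and 2 of 34 were lower. The list median was 0.16 in centred and -0.24 in corrected ratios. The Atp5me call was lost without any 1 array (0.94 to 1.16), that of Atp5mc1 without Indo array 1 (0.84) or 2 (0.69), and that of Ndufs6-ps1 without Indo array 1 (0.62) or 3 (0.76). Among 28 glycolysis and hypoxia probes the lactate transporter Slc16a1 rose (1.10) and Vegfa fell (-0.96), 3.57% in each direction. The Slc16a1 call was lost without Indo array 2 (0.56), and that of Vegfa without Indo array 1 (-0.93) or 3 (-0.67) and in corrected ratios (-0.48). Among 14 cholesterol synthesis probes 1 rose (7.14%), Cyp51 (1.07), with a median of 0.39. Its call was lost without Indo array 1 (0.85) or 2 (0.97) and in corrected ratios (0.60).

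Of 33 antioxidant and glutathione probes 1 rose, the thioredoxin reductase Txnrd1 (1.23), and 3 fell, the glutathione transferases Gstp1 (-2.11) and Gstm1 (-1.13) and the glutathione reductase Gsr (-0.90). These calls were 3.03% higher and 9.09% lower, against 2.6% and 10.7% over all probes. Gstp1 read -2.38, -2.37 and -1.58, but was -0.55 in corrected ratios and not called. Gstm1 and Txnrd1 lost the call without any 1 array, at -1.16 to -1.11 and at 1.17 to 1.33. Gsr lost it without Indo array 1 (-0.46) or 2 (-1.08). Txnrd1 and Gsr were not called in corrected ratios (0.86 and -0.47). Of 49 drug metabolising probes 1 rose, the aldose reductase Akr1b1 (1.10), and 4 fell, among them the glucuronosyltransferase Ugt2b37 (-2.54, -1.30 and -2.44, mean -2.09), the aryl hydrocarbon target Cyp1a1 (-1.38) and Ugt1a9-ps (-1.19). Higher calls made up 2.04% and lower calls 8.16% of this list. The other Cyp1a1 probe had a mean of -0.85 and was not called. Akr1b1 was not called without any 1 array (0.98 to 1.19). Ugt1a9-ps was not called without Indo array 1 (-0.97). Neither Cyp1a1 (-0.65) nor Ugt1a9-ps (-0.59) was called in corrected ratios.

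Ion channel and receptor probes fell more often than rose, as did all probes. Of 62 voltage-gated and potassium channel probes none rose and 10 fell (median -0.18), a share of 16.1% against 10.7% over all probes. The calcium channel subunits Cacnb2 (-2.42, -1.84 and -1.96) and Cacnb4 (-2.75, -1.53 and -1.93) were low on all 3 arrays, with means of -2.07 each. The pacemaker channel Hcn3 had a mean of -1.88 and the potassium channel Kcnj8 had values of -3.16 and -0.69. Of 30 glutamate, GABA and glycine receptor probes none rose and 6 fell, 20% (median -0.24). The kainate receptor Grik1 read -2.57, -2.69 and -1.70, and the glycine receptor Glra2 had values of -1.66 and -3.01. Gabrq had a mean of -1.33 and Grm5 of -1.15. In corrected ratios, where 6.34% of all probes were lower, 8 of 62 channel probes and 4 of 30 receptor probes were lower. Cacnb2 was at -1.35 and Grik1 at -1.58 there. Hcn3 (-0.85), Gabrq (-0.97) and Grm5 (-0.49) were not called there.

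Of 19 apoptosis probes 1 rose and 5 fell, 26.3% against 10.7% lower over all probes, with a median of -0.45. In corrected ratios 1 of 19 was higher and 2 were lower, where 3.38% of all probes were higher and 6.34% lower. Apaf1, which forms the apoptosome, read -2.66, -2.59 and -1.91, a mean of -2.39 ± 0.33 (limma adjusted p = 3.6e-05). The TNF receptor Tnfrsf1b read -2.01, -1.87 and -1.03. Bnip3l, a mitochondrial receptor for mitophagy, fell by 1.09, a call that was lost without Indo array 1 (-0.99) or 3 (-1.05) and in corrected ratios (-0.45). The caspase inhibitor Birc5 rose, with values of 1.06 and 1.45, and was not called with only the Indo arrays in the fit (limma adjusted p = 0.070) or in uncentred ratios (1.06, adjusted p = 0.27). Of 47 growth and neurotrophic factor probes 1 rose and 10 fell, 21.3% against 10.7% over all probes. In corrected ratios 5 were lower, where 6.34% of all probes were. The neurotrophin Ntf3 read -2.48, -1.96 and -1.43 at one probe, and its other probe was also called lower. Egf (-0.97, -1.90 and -2.54), the receptor Cntfr (-1.75, -1.75 and -1.31) and Tgfb2 (-2.01, -1.26 and -1.22) were low on every array, while the other Tgfb2 probe had a mean of -0.13. Their corrected means were -1.22 for Ntf3, -1.37 for Egf, -0.82 for Cntfr and -0.71 for Tgfb2, all still called.

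Calls of list members were also lost under another fit or scale. With only the Indo arrays in the fit, Atf3, Atp5mc1, Ccn1, Cd36, Creb1, Cyp51, Gabrq, Gsr, Il12a, Kcnj8, Kdr, Lcn2, Lox, Lpl, Ndufs6-ps1, Slc16a1, Tac1, Ucp3 and Vegfa were not called. In uncentred ratios Angpt1, Atf3, Atp5mc1, Cd36, Creb1, Gabrq, Gsr, Il12a, Kdr, Lcn2, Lox, Ndufs6-ps1, Slc16a1, Txnrd1, Ucp3 and Vegfa were not called.

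**Figure D4:**
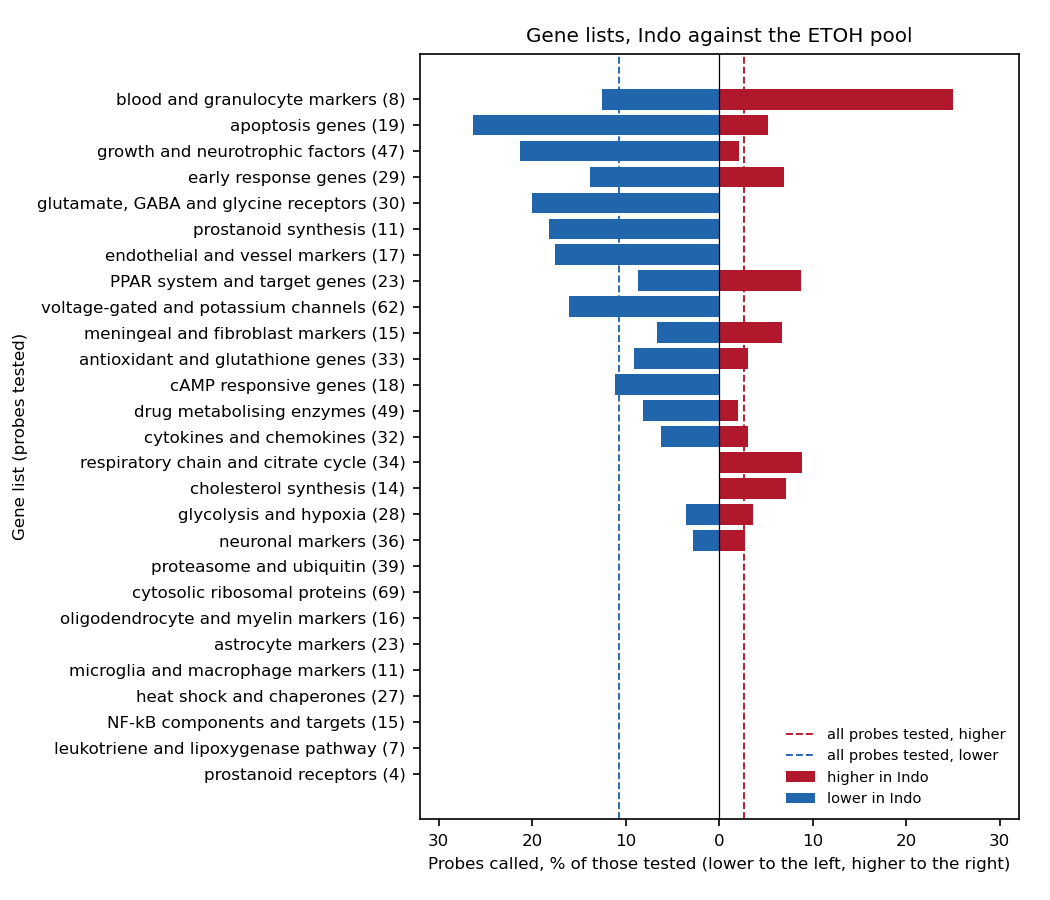
For each gene list the bars give the percentage of tested probes called lower (blue, to the left) and higher (red, to the right) in Indo against the ETOH pool, with the number tested in parentheses. Dashed lines mark all probes tested, 10.7% lower and 2.6% higher: of the lists with at least 30 probes, growth factors, receptors and channels extend furthest past the line for lower calls.

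Set against the Injured 4 hr arrays, of PBS-treated cultures against the PBS pool, Indo differed at 570 of 3774 probes (15.1%), 26 higher (0.689%) and 544 lower (14.4%; limma adjusted p under 0.05). The vehicle and the deposited medians also differ between these groups, and their part in the difference cannot be told apart from the drug's. The correction sets the Injured 4 hr mean near 0 by construction. The 17 calls in corrected ratios (0.45%), 4 higher (0.106%) and 13 lower (0.344%), therefore rest on nearly the same values as Indo against its own pool. The error of the Injured 4 hr mean also enters, and the count is below the 368 of that test. These 17 calls make no comparison with Injured 4 hr. In centred ratios the count was 199 without Indo array 1 and 150 without Indo array 3, and 59 to 69 without any 1 Injured 4 hr array. Of the 99 probes higher than the ETOH pool, 14 also exceeded Injured 4 hr and were called higher than the ETOH pool in corrected ratios, and of the 408 lower probes 158 were lower in all 3. Barhl1 stood 4.27 ± 0.65 above Injured 4 hr (adjusted p = 0.0011). Nos1ap lay 2.80 below it (difference -2.80 ± 0.43, adjusted p = 0.0011), and Arhgap17 differed by -2.40 ± 0.36. Rarb was higher by 1.88 ± 0.50 (adjusted p = 0.022) and Pcdha10 by 2.30. Ptges differed by -1.85 ± 0.47 (adjusted p = 0.022). Map1b, although above the ETOH pool, was lower than in Injured 4 hr (-1.55 ± 0.39, adjusted p = 0.022). Without any 1 Injured 4 hr array, or without Indo array 3, Rarb (1.52 to 2.04), Ptges (-1.96 to -1.66) and Map1b (-1.69 to -1.43) were not called, nor was Ptges without Indo array 1 (-1.75). Pcdha10 was not called without Injured 4 hr array 2 or 3 (2.25 for both). Of 69 ribosomal protein probes 48 were lower than in Injured 4 hr, against 14.4% of all probes. In Injured 4 hr itself, with no drug, 65 of 70 were called higher than the PBS pool, with a median of 1.96. Against the ETOH pool none was called in Indo, with a median of 0.27.

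Against the mean of CKIN, MP, Acet and NS398, no probe of 3228 was called for Indo (limma, adjusted p under 0.05; 0%), and 273 had an unadjusted p under 0.05. In corrected ratios 0 of 3214 were called and 300 had an unadjusted p under 0.05. The lowest adjusted p was 0.17, for Glra2, with Indo values of -1.66 and -3.01 and means of 0.10 in CKIN, -0.13 in MP, -0.50 in Acet and -1.02 in NS398. Its difference was -1.95 ± 0.39. The other largest negative differences, given as values, were P3h1 (-1.78), Pla2g5 (-1.59), Mmp23 (-1.57), Chrm5 (-1.56), Kcnj8 (-1.51), Mc3r (-1.46), Foxj1 (-1.43), Nrbf2 (-1.39) and Stat5b (-1.34). Foxj1, a transcription factor of motile cilia, read -2.68, -0.82 and -1.03 in Indo and -0.27 to 0.12 in the means of the other treatments.

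The largest positive differences were Dnttip1 (1.97 ± 0.44), Selp (1.84), Il2 (1.52), Tfpt (1.47), Foxd1 (1.43), Aldh6a1 (1.41), Tcf3 (1.28), Hipk3 (1.28), Pga5 (1.28) and Or1e31 (1.27). Selp, an adhesion protein of platelets and endothelium, rested on a single array, with -0.77, 4.45 and -0.14. The difference was 0.81 for Barhl1 (95% interval -0.23 to 1.86), 0.20 for Ptges (-0.56 to 0.97) and 1.00 for Rarb (0.18 to 1.82; adjusted p = 0.57).

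NS398, an inhibitor selective for PTGS2, is the other cyclooxygenase inhibitor of the series, tested against its own DMSO pool at a dose the labels do not give. Indo and NS398 differed at 16 of 3682 probes (0.435%), 1 higher (0.0272%) and 15 lower (0.407%) in Indo (limma adjusted p under 0.05). In corrected ratios 37 of 3665 differed (1.01%), 7 higher (0.191%) and 30 lower (0.819%). Of 31 cytokine and chemokine probes none was higher and 3 were lower, with a median of -0.27 against -0.11 over all probes. The 3 were both Ccl2 probes and Cxcl1. Ccl2 read 0.59, 1.15 and 0.05 in Indo and 3.52, 4.22 and 4.69 in NS398, a difference of -3.55 ± 0.49. Cxcl1 read -0.44, 1.13 and 1.43 in Indo and 3.51, 4.38 and 4.27 in NS398, a difference of -3.35 ± 0.53. Ptgs2 itself read 0.84, 0.98 and 0.28 in Indo and 2.92, 3.49 and 3.39 in NS398, a difference of -2.57 ± 0.39 (95% interval -3.37 to -1.76). The arrays of the groups did not overlap for any of these 3 genes, which their choice from the called probes favours. The count was 8 without Indo array 1, 10 without Indo array 3, 26 without Indo array 2, 57 without NS398 array 1 and 8 without NS398 array 3. The share of the drug, the vehicle and the dose in this difference cannot be told apart.

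**Figure D5:**
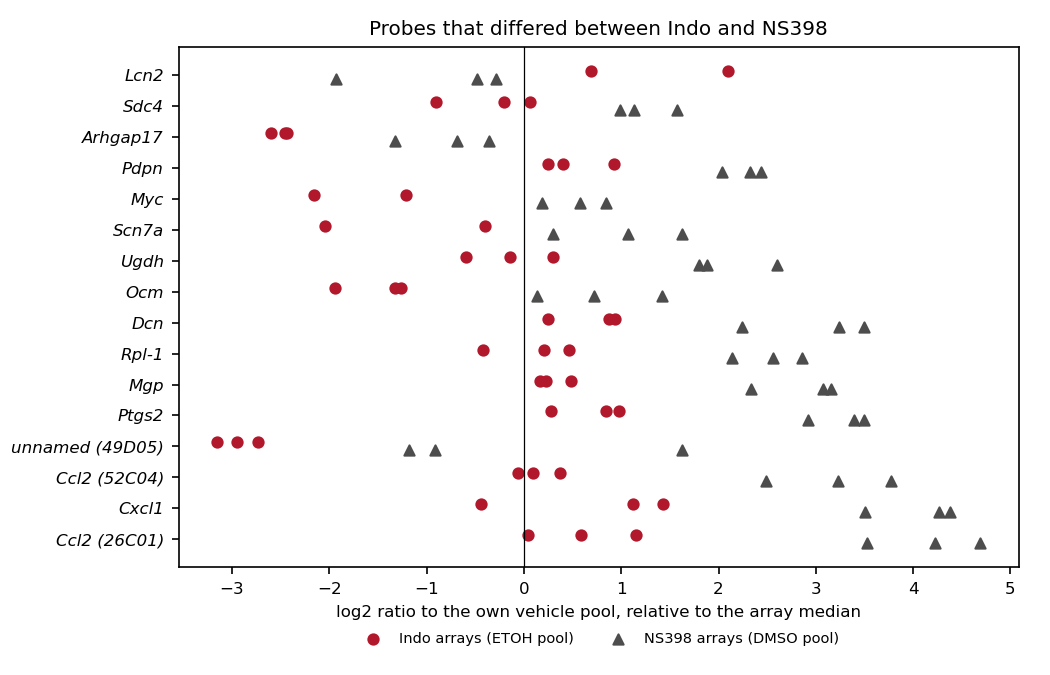
The 16 probes that differed between Indo and NS398 run down the page, with the log2 ratio to each group's own vehicle pool on the horizontal axis. Red points are Indo arrays and grey triangles NS398 arrays: the NS398 values of Ccl2, Cxcl1 and Ptgs2 lie between 2.48 and 4.69, above every Indo value of those genes.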

How the data were processed

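The deposited table of the series held log2 ratios of 2-colour arrays, per the labels' channel names. The deposited log2 base was read from the values, many of which are exact base-2 logarithms of ratios of small whole numbers. Upstream image analysis, background correction, normalization and dye assignment were not given in the sources used here, so any centring before deposit and the direction stay unknown. Of 4962 measured probes 4415 had 1 gene symbol, 2 several and 545 none, and 4367 symbols were updated through gene IDs. Gapdh spots (51) were averaged.

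Each array was centred on its median. A probe was tested where each group compared had at least 2 values. limma 3.58.1 in R 4.3.3 (lmFit, eBayes) fitted all 21 arrays with a term for each of 7 groups, and p-values were 2-sided and adjusted by Benjamini-Hochberg over all probes tested. The Indo mean was tested against 0. SEs and 95% intervals are the fit's. Corrected ratios were residuals of each array's loess curve (span 0.4) on the Injured 4 hr mean, then centred within source plates that held 20 probes or more. The fit was tested on simulated data.

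Named genes were the 10 largest rises and falls with one sign on every Indo array, up to 4 called members of each list, all prostanoid, receptor and leukotriene genes and a fixed panel. Genes that differed between Indo and NS398 and Dusp1 were named after their values were seen. Members and lists were chosen with earlier results of these data known. Alternatives were other normalizations, filters, arrays in the fit, a replicate block and leaving out arrays.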

Additional observations from a re-analysis of the deposited data

Results flagged for a closer look

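The difference between Indo and NS398, each against its own vehicle pool, passed limma's test at 16 probes (adjusted p under 0.05), 0.435% of those tested. Values are log2 differences, Indo minus NS398. The inflammatory members were Ccl2 at its 2 probes (-3.55 and -3.03), Cxcl1 (-3.35) and Ptgs2 (-2.57). The others that were lower in Indo were Mgp (-2.56), Dcn (-2.31), Ugdh (-2.24), Pdpn (-1.74), Sdc4 (-1.58), Rpl-1 (-2.44), the calcium-binding protein Ocm (-2.27), the sodium channel Scn7a (-2.22), Myc (-2.22), Arhgap17 (-1.71) and the unnamed probe 49D05 (-2.79). Lcn2 was higher in Indo (2.29). With only the arrays compared in the fit 10 of the 16 were not called, and in uncentred ratios 13 were not, while both Ccl2 probes and Cxcl1 were called in both settings. Arhgap17, Dcn, Mgp, Pdpn and Sdc4 lost the call without Indo array 1 or 3 and without NS398 array 2 or 3. Ocm lost it without Indo array 1 or NS398 array 3, Myc without NS398 array 2 or 3, Scn7a without NS398 array 2 and Lcn2 without NS398 array 3. Indo and NS398 arrays did not overlap for any of these 16 probes. The probes were picked by the test on the same arrays, so this adds no support.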

How the results depend on the processing

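Counts of calls (limma, adjusted p under 0.05) depended on the setting, and the cause was not tested unless named. Against the ETOH pool the 507 calls (19.5% of them higher) became 899 (52.8% higher) under quantile normalization, 289 (7.96% higher) in uncentred deposited ratios and 289 with only the Indo arrays in the fit, which has fewer arrays. Scale normalization gave 741 (31% higher) and corrected ratios 368 (34.8% higher). Leaving out an Indo array gave 298 to 379. Against the other treatments the 0 calls became 10 under quantile normalization, 1 under scale normalization, 1 without small whole-number ratios and 0 to 1 with an array left out, with 1 without CKIN array 1 and 1 without Indo array 2. Against Injured 4 hr the 570 calls became 2864 in uncentred ratios, where deposited Injured 4 hr medians were -2.26 to -2.12 and all calls were higher, 1221 under scale normalization, 1152 with only the arrays compared and 17 in corrected ratios, where the Injured 4 hr mean is near 0 by construction, and 59 to 436 with an array left out. Against NS398 the 16 calls became 42 under quantile normalization (38.1% higher, against 6.25%), 37 in corrected ratios, 29 without small whole-number ratios and 6 with only the arrays compared, and 8 to 57 with an array left out, while uncentred ratios gave 15 (80% higher). Deviations of Indo arrays and same-numbered arrays of the other groups correlated at -0.081 to 0.087. In CKIN the same-numbered array was the best match for each Indo array, at 0.080 to 0.087. Whether replicate numbers pair the arrays is therefore not settled. With a replicate block the counts were 519 against the ETOH pool, 0 against the other treatments, 666 against Injured 4 hr and 23 against NS398.

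Over all named genes and alternatives against the ETOH pool, 1170 values kept their sign and their side of the threshold, 143 lost the call, 24 gained it and 25 changed sign. None of those sign changes was of a called gene. In corrected ratios these were Dpep1 (0.36), a Gapdh probe (-0.18), Ggt1 (0.023), an Hspa1a probe (-0.064), Pla2g1b (0.50), Ptgds (-0.046), Ptgis (0.28), a Ptgs1 probe (0.091), Rpl-1 (-0.026), Sdc4 (0.10) and Tbxas1 (0.11). Pla2g1b was also 0.0052 uncentred, 0.16 under quantile normalization and 0.15 with a replicate block, Ptgis 0.14 and 0.071 in those last 2 settings, and the other Ptgs1 probe 0.070 under quantile normalization. Leaving out an Indo array gave -0.38 to 0.61 for Il1b, -0.26 to 0.012 for Nfkbia, -0.33 to 0.59 for Ptgir, -0.63 to 0.19 for that Ptgs1 probe, -0.11 to 0.33 for Rpl-1, -0.46 to 2.15 for Selp and -0.37 to 0.076 for Ugdh. Against Injured 4 hr, where Map1b, Ptges, Ptpru and Slc2a4 had been called lower, uncentred ratios turned Cxcl2 (2.00), Map1a (1.77), Map1b (0.60), Nefl (0.96), Ptges (0.30), Ptgs2 (1.76), Ptpru (0.019) and Slc2a4 (0.077), while in corrected ratios the sign of Cxcl2 (0.83), Map1a (1.54), Map1b (1.20), Nefl (1.00) and Ptgs2 (0.15) was fixed by that construction. Quantile normalization turned Cxcl2 (0.65) and Ptgs2 (0.11), and leaving out an array gave -0.58 to 0.029 for Map1a. Missing and dim spots on the Indo arrays and 3 arrays limit the precision.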
